A study of Mus musculus with 12 samples.

Results

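The mRNAs of 9 factors that act on the ribosome after initiation were followed through the last steps of mouse oocyte development. They were Eef1a1, Eef1b2, Eef1d, Eef1g and Eef2, which encode elongation factors, Naca and Btf3, which encode the nascent polypeptide-associated complex, Tpt1, which encodes the translationally controlled tumour protein, and Gnb2l1, the older symbol of Rack1. They were chosen by name and function, with earlier results of these data known, as 9 of the 23230 genes listed in a table of FPKM (sequenced fragments scaled to exon length and to the mapped total of the library). The rule that picks them uses no measured value. All 9 also passed the filter on low values, by which 11502 genes were kept that reached 1 FPKM in at least 1 library.

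WT females were compared with Zar1/2-null females, which lack both of the oocyte RNA-binding proteins ZAR1 and ZAR2. Poly(A) RNA of growing, fully grown germinal vesicle (GV) and ovulated oocytes, labelled metaphase II (MII) in both genotypes, was copied into cDNA by Smart-seq2 from an oligo-dT primer. Each of the 6 groups (3 stages, 2 genotypes) held 2 libraries, and each library pooled 10 oocytes. The labels name a C57BL6/ICR hybrid strain, females of 13.5 days for growing oocytes, females of 21 days and 44 h after PMSG for GV oocytes, and 16 h after hCG for MII oocytes. No age is given there for MII, and the methods give a slightly younger age for the growing stage.

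The study describes ovulated Zar1/2-null oocytes as held in meiosis I, without a metaphase II spindle. MII is therefore the label and collection time of those libraries, and at that stage these libraries cannot tell genotype and meiotic stage apart. The study held WT oocytes in meiosis I with nocodazole and found the decay of selected mRNAs unaffected by RT-qPCR. It proposes that the delayed decay in null oocytes comes from the lack of ZAR1/2. None of the libraries used here had that treatment. Both null alleles are germline CRISPR/Cas9 alleles carried by every cell of the animal, so the somatic cells of the follicle carried them too. The Zar1 allele is a small deletion followed by a stop codon, which leaves most of the mRNA in place. Nothing says whether the 2 libraries of a group came from separate females, so the p-values below measure the spread between these libraries, which may be technical. Zar2 mRNA, listed as Zar1l, stood at 639 and 644 FPKM in WT growing oocytes and at 17.5 and 13.2 FPKM in Zar1/2-null growing oocytes. It was lower in both Zar1/2-null libraries at every stage. Zar1 mRNA was still listed in Zar1/2-null oocytes, at 189.6 and 194 FPKM at MII against 83.6 and 72.4 FPKM in WT, so its level does not check the labels.

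Elongation is the repeated step that adds amino acids to the growing chain. eEF1A, the product of Eef1a1, brings each aminoacyl-tRNA to the ribosome as a GTP complex, and the eEF1B subunits encoded by Eef1b2, Eef1d and Eef1g recharge it with GTP. eEF2 moves the ribosome forward by a codon. The nascent polypeptide-associated complex, a heterodimer of the NACA and BTF3 proteins, binds chains as they leave the ribosome, and RACK1 sits on the small subunit as a scaffold for signalling proteins. Most of these mRNAs belong to the terminal oligopyrimidine (TOP) class, whose cap is followed by a run of pyrimidines and whose translation follows growth signals together with that of the ribosomal proteins. Growing oocytes store such mRNAs, and maturation to MII runs on stored mRNA. In the study, fully grown oocytes whose chromatin surrounded the nucleolus showed no transcription, unlike oocytes without this form. No sorting by this form is stated for the GV libraries.

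Since TOP mRNAs are defined by their 5′ end, the annotated starts of the members were examined first. RefSeq starts (build GRCm38.p6) were given for 7 members, with Gnb2l1 matched as Rack1 and Btf3 at 2 starts. In each of the 8 starts, a C followed by at least 4 C or T was found on the coding strand between 20 bases before and 50 bases after the annotated start. The same was true of 64.4% of all 32851 RefSeq starts, so the match describes the sequence and does not set these genes apart. The windows below are shown because they let the members' starts be compared, and the capitals mark the first such run, counted from its C. Counting any C or T, the longest run of the searched stretch was longer than the marked one in 3 starts. It was 7 bases for Naca, 8 for Eef2 and 9 for the first Btf3 start, against 5, 7 and 6 marked.
Eef1a1 (chr9:78481710-78481739, minus strand): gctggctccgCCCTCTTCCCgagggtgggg
Eef1b2 (chr1:63176851-63176880, plus strand): tgcgtccgagcgCTTTCgttcaactccggc
Eef2 (chr10:81176636-81176665, plus strand): cgtcagcggtCTCTTCCgccgcagccgccg
Tpt1 (chr14:75845276-75845305, plus strand): cggtgacgtagccgagcgtgCCCTCTatat
Naca (chr10:128035331-128035360, plus strand): gcaactcgttCTCTTaaagaggaaacccgg
Btf3, first start (chr13:98317007-98317036, minus strand): gccaactccgCTTCCTgaattctggaggaa
Btf3, second start (chr13:98316966-98316995, minus strand): ttacttccggCCTCCCTCTagctgccatct
Gnb2l1 (chr11:48800344-48800373, plus strand): gcggaggccgCTCTTTCTTTTTCTCCacag
The longest run, 16 bases, was that of Gnb2l1 and began 6 bases before the annotated start. The runs of Eef1b2 and Tpt1 lay 32 and 40 bases after the annotated start, farther in than a TOP run would be if the annotated base were the cap site. That of Eef2 began 15 bases after it. The marked runs of Btf3 began 20 and 18 bases before its 2 annotated starts and ended before them. The 5-base run of Naca began 5 bases before its annotated start, so it ended before it too.

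The 3′ ends were examined because poly(A) tails were the handle for cDNA synthesis. In an oligo-dT library, a shorter tail and fewer molecules cannot be told apart, nor can fewer RNA molecules per oocyte be told apart from fewer intact oocytes in a pool. In the mm9 annotation, a poly(A) signal (AATAAA or ATTAAA, read on the transcript strand) lay in the last 100 bases of a transcript of 7 members, and no signal was found there for Eef1g or Tpt1. The T-rich element TTTTAT or TTTTAAT, the DNA letters of the cytoplasmic polyadenylation element, was found in the last 100 bases of Eef1a1 and Gnb2l1 and of none of the other 7. Among 10381 other kept genes with an annotated 3′ UTR, 19.6% held such an element in the last 100 bases and 76.9% held a poly(A) signal in the last 50. The signal windows of the members with the widest differences between genotypes or stages are shown, with the signal in capitals.
Naca (mm9, chr10:127485641-127485670, plus strand): tttgtactgtttctatcactAATAAAgttg
Btf3 (mm9, chr13:99079863-99079892, minus strand): aataaagtttggaaagggttAATAAAattc
Eef1d (mm9, chr15:75725251-75725280, minus strand): actttttttttttttttgagAATAAAtttt
Eef1a1 (mm9, chr9:78326273-78326302, minus strand): tgtcacagaattttgagaccATTAAAacaa
Gnb2l1 (mm9, chr11:48619889-48619918, plus strand): aagagtccacaaaaaaagcaAATAAAcact
In Eef1a1 the T-rich element stood 49 bases before a signal of the variant form ATTAAA. In Gnb2l1 it stood after the signal, 15 bases from the end.

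A limit on levels between genes followed from the mapping. The authors kept only reads of 50 bases that mapped to a single place, and several of these genes have processed pseudogenes. Of the 50-base windows of each annotated transcript, 99.1% occurred nowhere else in the mm9 genome for Gnb2l1, 93.5% for Eef1b2, 89.8% for Eef2 and 88.1% for Eef1d. For Tpt1, Btf3, Naca, Eef1g and Eef1a1 the share was only 40.0%, 39.5%, 37.1%, 31.6% and 27.4%. The FPKM of these 5 genes may therefore be too low beside the other 4, and part of their reads could also fall to a pseudogene or be taken from it. Differences of 1 gene between libraries share the same windows.

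Unless stated otherwise, levels below are FPKM scaled by the authors to the ERCC spike-in, synthetic RNA of which every lysate received the same amount. Both WT growing libraries have a factor of 1, and by the ERCC shares the study lists, every other library was set against the same-numbered one of WT growing oocytes. Levels therefore stand for RNA per pool relative to that library, and libraries numbered 1 and 2 are on slightly different scales. Each group holds 1 library of each number, so this offset cancels in differences between groups but widens the spread within them. Differences are log2 differences of FPKM + 1, which understate the change of genes near 1 FPKM. They were tested with limma over all 12 libraries, with Benjamini-Hochberg (BH) adjustment over all 11502 kept genes. A gene was called at an adjusted p under 0.05. With 2 libraries on each side the smallest p of an exact permutation test is 0.333, and limma therefore took the spread over all groups. The scaling factors ran from 1 in WT growing oocytes to 0.225 in WT MII oocytes and moved the median of all kept genes: at GV the median genotype difference was -0.38 with ERCC scaling and -0.03 without it, and at MII 0.06 and -0.01. Oocyte markers summed to between 3475 and 17732 FPKM (12 of 12 kept), but not every marker was high in every library. In the WT MII libraries Oosp1 alone held 2881 and 2214 of 4043 and 3475 FPKM. Figla was at 0.276 and 0.687 FPKM there and Zp3 at 16.7 and 16.1 FPKM. Granulosa and cumulus markers summed to between 4.88 and 34.1 FPKM, with Ptx3 at 0 in both libraries of every group and 10 of 15 genes not kept. Cyp19a1, another marker of this list, was at 19.04 and 16.74 FPKM in WT growing oocytes. At MII the sum of these markers was 4.88 and 5.21 FPKM in the WT libraries, against 8.53 and 7.29 FPKM in the Zar1/2-null libraries. Most of it was Cyp19a1, at 3.855 and 4.01 FPKM in WT against 7.002 and 5.885 FPKM in Zar1/2-null oocytes. The part of these markers in the results was not tested.

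**Figure D1:**
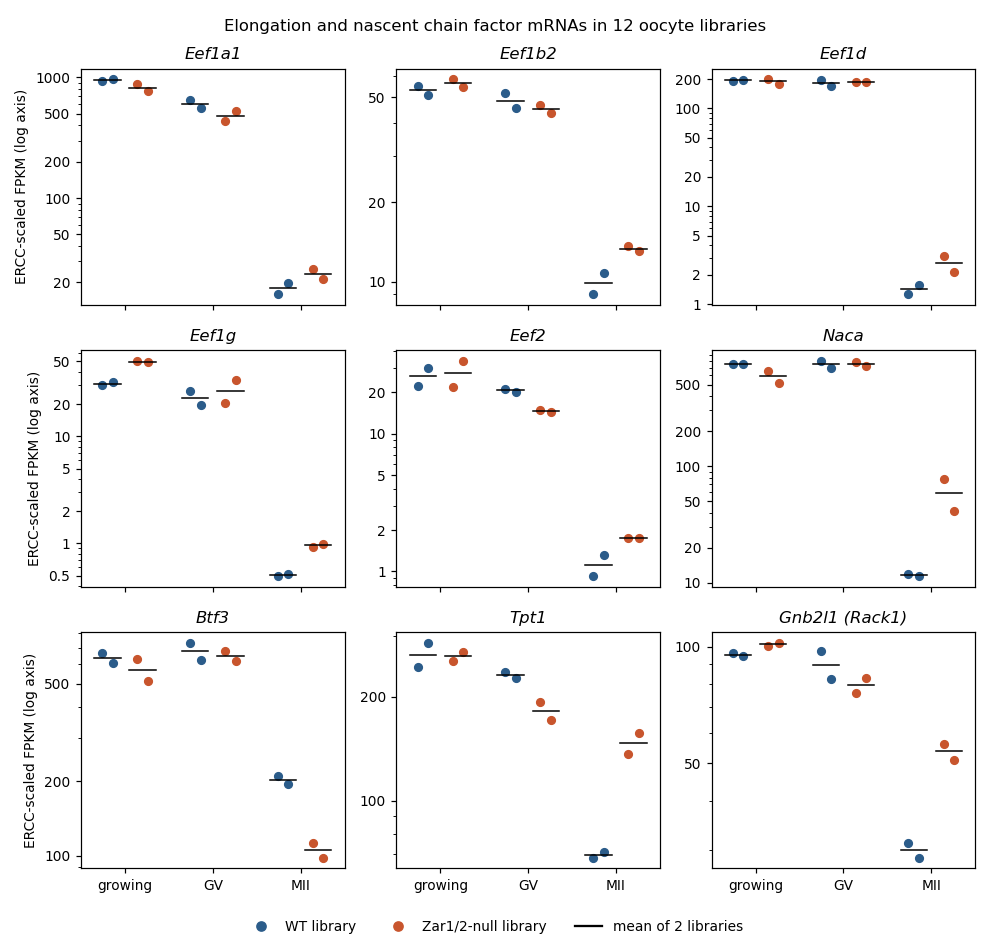
ERCC-scaled FPKM (log axis) of each gene in the 12 libraries, grouped by stage on the horizontal axis and coloured by genotype, with each point a library and each line the mean of 2 libraries. At MII, Naca stood at 77.1 and 41.7 FPKM in Zar1/2-null libraries against 12.03 and 11.5 in WT, and Btf3 at 112 and 98.1 against 209.7 and 195.

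In WT growing oocytes the members spanned a wide range of levels. Eef1a1 was the highest, at 941 and 966 FPKM in the 2 libraries. Naca followed at 751 and 744 FPKM and Btf3 at 666 and 608 FPKM. Next came Tpt1 (mean 265 FPKM), Eef1d (194), Gnb2l1 (95.4) and Eef1b2 (53.2), and the libraries of neighbours in this order did not overlap. Eef1g (31.0 ± 1.64, SD, n = 2) and Eef2 (26.2 ± 5.59, SD, n = 2) closed the order, and these 2 overlapped. Eef2 was thus listed far below Eef1a1, and the Eef1a1 to Eef2 ratio within a library was 42.2 and 32.0. Eef1a1 was also the member with the lowest share of windows found nowhere else.

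In Zar1/2-null growing oocytes the order was the same, except that Naca and Btf3 overlapped and Eef1g and Eef2 did not. In both genotypes Eef1a1 lost the first place at GV, where Naca (795 and 691 FPKM in WT, 779 and 715 in Zar1/2-null oocytes) was the highest by its mean. In WT GV oocytes the libraries of Naca, Btf3 and Eef1a1 overlapped with their neighbours. In WT MII oocytes the order was led by Btf3, Tpt1 and Gnb2l1, and in Zar1/2-null MII oocytes by Tpt1, Btf3 and Naca.

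Between growing and GV oocytes, 1 of the 9 members fell in WT and none rose. Of all kept genes, 28.7% fell and 2.77% rose, with a median difference of -0.29. Without ERCC scaling 3.23% fell and 3.66% rose. The member was Eef1a1, which went from 941 and 966 to 652 and 556 FPKM. Its log2 difference was -0.66 (SE 0.18; limma, BH-adjusted p = 0.018). Naca (-0.01, 95% interval -0.55 to 0.52) and Btf3 (0.09, -0.27 to 0.45) had the smallest differences. The call of Eef1a1 was lost without ERCC scaling (-0.27), and it was also lost without WT growing replicate 1 (adjusted p = 0.067), WT growing replicate 2 (adjusted p = 0.096) or WT GV replicate 2 (adjusted p = 0.12) in the same limma fit.

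In Zar1/2-null oocytes, 4 of the 9 members fell between growing and GV and none rose, where 55.9% of all kept genes fell and 4.76% rose (21.3% and 14.3% without ERCC scaling). Eef1a1 went from 877 and 772 to 435 and 529 FPKM, Eef1g from 50.4 and 49.1 to 20.3 and 33.2 FPKM, and Eef2 from 22.0 and 33.8 to 14.98 and 14.5 FPKM. With ERCC scaling both GV libraries of these mRNAs lay below both growing libraries, and without it those of Eef2 overlapped. The share of all kept genes separated in this way was not counted. The log2 differences were -0.78 for Eef1a1, -0.91 for Eef1g, -0.85 for Eef2 and -0.52 for Tpt1 (limma, BH-adjusted p = 0.0031, 0.0034, 0.0043 and 0.011). These 4 calls rested on the scaling: without it none of the 4 was called, Tpt1 turned to 0.03, and Eef1d, Naca and Btf3 were called higher instead. That of Tpt1 was also lost without Zar1/2-null growing replicate 2 or Zar1/2-null GV replicate 2. Whether the genotypes differed in this step was tested directly, and the test called 0 of the 9 (limma, BH-adjusted p from 0.24 to 0.88), where 2.58% of all kept genes were called higher and 11.3% lower (2.22% and 3.72% without ERCC scaling).

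In growing oocytes the genotypes differed in 1 member. Eef1g, the structural subunit of the exchange complex, went from 29.8 and 32.1 FPKM in WT libraries to 50.4 and 49.1 FPKM in Zar1/2-null libraries, 1.61-fold higher. The log2 difference was 0.67 (SE 0.21; limma, BH-adjusted p = 0.029). Of all kept genes, 10.6% were called higher and 24.4% lower at this stage, with a median of -0.16, and without ERCC scaling 14.9% and 12.3%. The call was lost when any of the 4 growing libraries was left out, with an adjusted p up to 0.14, while the difference stayed between 0.61 and 0.72. The other 8 members had differences between -0.35 (Naca, at 659.8 and 518 FPKM in Zar1/2-null oocytes) and 0.09.

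In GV oocytes no member was called in either direction, where 2.83% of all kept genes were called higher and 40.6% lower in Zar1/2-null oocytes (limma; 7.19% and 13.5% without ERCC scaling). By unadjusted limma p under 0.05, Eef2 (-0.47, 95% interval -0.91 to -0.02) and Tpt1 (-0.34, -0.67 to -0.01) were lower, each with an adjusted p of 0.084. Among the differences of all 11502 kept genes they ranked 6839 and 5321 from the highest, near the middle. With ERCC scaling Eef2 was at 21.3 and 20.2 FPKM in the WT libraries, above the 14.98 and 14.5 FPKM of the Zar1/2-null libraries. Without it these libraries overlapped, with 25.45 and 29.02 FPKM in WT against 28.11 and 24.86 FPKM in Zar1/2-null oocytes. The share of all kept genes separated at GV was not counted. The median over the members was -0.10 and that over all kept genes -0.38. Without ERCC scaling, Eef1d (0.48) and Eef1g (0.63) were called higher and none lower, so that the direction at this stage depended on the scaling for most members. Among the other lists, 5 of the 6 termination and recycling factors were called lower, as were 9 of the 23 genes of nascent chain processing and targeting and 2 of 7 other elongation genes. Without ERCC scaling these counts were 2, 2 and 0.

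**Figure D2:**
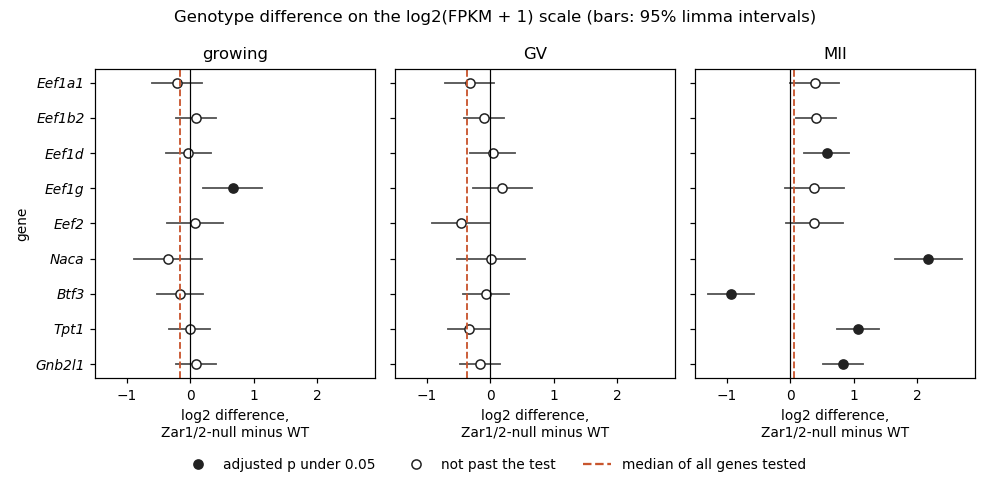
Log2 difference of FPKM + 1 between Zar1/2-null and WT oocytes (horizontal axis) of the 9 genes in growing, GV and MII oocytes, with bars for 95% limma intervals and filled points for an adjusted p under 0.05. The dashed line is the median of all genes tested, which lies at -0.16, -0.38 and 0.06, and at MII Naca (2.18) and Btf3 (-0.94) lie farthest apart.

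At MII, 4 of the 9 members were higher in Zar1/2-null oocytes and 1 was lower. Of all kept genes, 21.5% were called higher and 10.3% lower, and without ERCC scaling 24.6% and 23.4%. The 4 were Naca, Tpt1, Gnb2l1 and Eef1d, and the 1 was Btf3. The median over the members was 0.40 against 0.06 over all kept genes. The same 5 calls were made without ERCC scaling, where Eef1g was added, and with each library scaled to the same median.

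The nascent polypeptide-associated complex showed the widest split. Naca encodes its alpha subunit and stood at 12.03 and 11.5 FPKM in the WT MII libraries, against 77.1 and 41.7 FPKM in those of Zar1/2-null females. Both Zar1/2-null libraries were above both WT libraries, although they differed from each other (59.4 ± 25.1 FPKM, SD, n = 2). The mean was 5.04-fold higher, with a log2 difference of 2.18 (SE 0.24; limma, BH-adjusted p = 3.5e-05). Without Zar1/2-null MII replicate 1, the higher library, it was 1.74 and still called. It ranked 481 from the highest among the differences of all 11502 kept genes.

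Btf3 encodes the beta subunit, the partner of NACA in the heterodimer, and moved the other way. It was at 209.7 and 195 FPKM in WT MII oocytes, and both Zar1/2-null libraries were lower, at 112 and 98.1 FPKM. WT oocytes held 1.92-fold more, and the log2 difference was -0.94 (SE 0.16; limma, BH-adjusted p = 0.001). In WT MII oocytes Btf3 was among the highest mRNAs of the library, at place 83 and 76 of the kept genes, against 331 and 323 in Zar1/2-null MII oocytes.

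The ratio of Naca to Btf3 within a library does not depend on the ERCC factor, and it made the split plain. It was 1.13 and 1.22 in WT growing oocytes, 1.05 and 1.02 in Zar1/2-null growing oocytes, 1.09 and 1.11 in WT GV oocytes and 1.15 and 1.16 in Zar1/2-null GV oocytes. The 8 libraries before MII thus lay close to equal listed FPKM. Only 37.1% of the windows of Naca and 39.5% of those of Btf3 occurred nowhere else, so equal mRNA amounts are not shown by this. In WT MII oocytes the ratio was 0.0574 and 0.0591. In Zar1/2-null MII oocytes it was 0.687 and 0.425, between the WT MII and the GV values. With 2 libraries in a group this ratio was not tested.

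**Figure D3:**
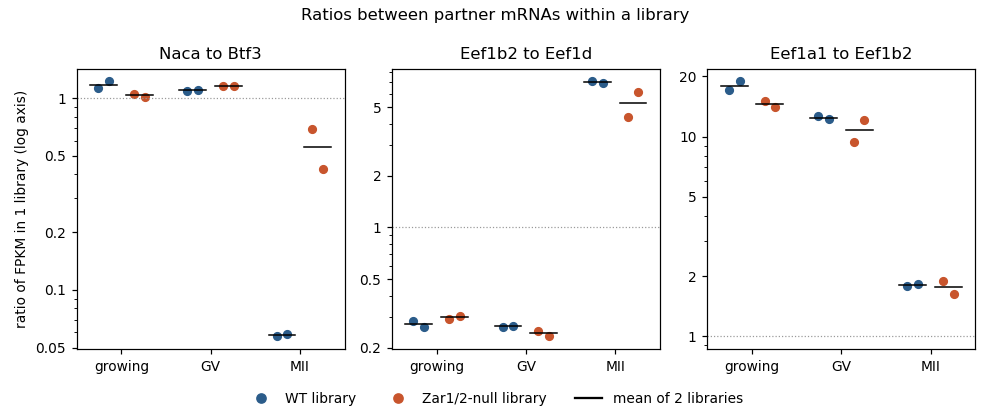
Ratios of FPKM within 1 library (log axis) for Naca to Btf3, Eef1b2 to Eef1d and Eef1a1 to Eef1b2, by stage and genotype, with each point a library, each line the mean of 2 and the dotted line equal levels. The Naca to Btf3 ratio of the WT MII libraries (0.0574 and 0.0591) lies far below all others, and the Eef1b2 to Eef1d ratio is above 1 only at MII.

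Tpt1 is a classic TOP mRNA whose product is a small calcium-binding protein. It was at 68.3 and 70.9 FPKM in WT MII oocytes, and at 137 and 157 FPKM in the Zar1/2-null libraries it was 2.11-fold higher. The log2 difference was 1.06 (SE 0.15; limma, BH-adjusted p = 0.00022). Tpt1 was the highest member in Zar1/2-null MII oocytes, with 32.0% and 40.6% of the members' summed FPKM, against 19.6% and 20.9% in WT MII oocytes.

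Gnb2l1, the RACK1 mRNA with the longest pyrimidine run shown above, was at 31.2 and 28.6 FPKM in WT MII oocytes, below the 56.3 and 51.2 FPKM of the Zar1/2-null libraries. Its log2 difference was 0.82 (SE 0.14; limma, BH-adjusted p = 0.00098), a 1.80-fold difference of the means. Of the members, this gene had the largest share of windows found nowhere else in the genome.

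Among the 4 eEF1 genes, 1 was called at MII. Eef1d, the delta subunit with exchange activity, was at 1.27 and 1.57 FPKM in WT MII oocytes, and the Zar1/2-null libraries held 3.09 and 2.14 FPKM. The log2 difference was 0.57 (SE 0.16; limma, BH-adjusted p = 0.019), and the call was lost without WT MII replicate 1 (adjusted p = 0.12), without Zar1/2-null MII replicate 1 (adjusted p = 0.18) and with only the libraries of the 2 groups (adjusted p = 0.078) in limma fits.

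Eef1b2, the beta subunit, was at 8.99 and 10.8 FPKM against 13.6 and 13.1 FPKM and just missed the threshold. Its difference was 0.40 (95% interval 0.08 to 0.72; limma, BH-adjusted p = 0.054), and it was called in 9 of the 20 alternative fits. Eef1a1 (0.38, -0.01 to 0.77), Eef1g (0.38, -0.09 to 0.84) and Eef2 (0.37, -0.07 to 0.82) were likewise not called. In each of these 4 both Zar1/2-null libraries were above both WT libraries, as was so for 43.5% of all kept genes. Without ERCC scaling the libraries of Eef1a1 overlapped, with 71.4 and 87.0 FPKM in WT against 91.5 and 84.6 FPKM.

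Maturation from GV to MII was the step at which the members changed the most. In WT, all 9 members fell, as did 93.4% of all kept genes, while 0.104% of these rose, with a median of -3.36 over the members and -1.28 over all kept genes. Without ERCC scaling 47.6% of all kept genes fell and 19.7% rose. Eef1d fell from 195 and 169 to 1.27 and 1.57 FPKM, 128-fold by the means. Naca fell from 795 and 691 to 12.03 and 11.5 FPKM, 63.1-fold, and Eef1a1 from 652 and 556 to 16.0 and 19.8 FPKM, 33.7-fold. Naca and Eef1a1 had been among the 3 highest members at GV.

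The log2 differences in WT were -6.24 for Eef1d, -5.86 for Naca, -5.001 for Eef1a1, -3.97 for Eef1g, -3.36 for Eef2 and -2.19 for Eef1b2 (limma, BH-adjusted p from 8.9e-11 to 5.7e-08). Those of Btf3, Tpt1 and Gnb2l1 were -1.74, -1.72 and -1.55 (limma, BH-adjusted p = 1.3e-06, 6.3e-07 and 1e-06). The members therefore split into 6 that fell by more than 2 on the log2 scale and 3 that fell by less. For these 3 the fall was seen with ERCC scaling and not without it. In unscaled FPKM, which follows the share of a library, Btf3 was at 875 and 896 in WT GV oocytes and 933 and 855 in WT MII oocytes. Its unscaled difference was 0.01. A share cannot give an amount, and the ERCC-scaled values stand for RNA per pool. Whether those give the amount per oocyte was not tested. The unscaled differences of Tpt1 and Gnb2l1 were 0.02 and 0.17, and with the libraries scaled to the same median all 3 were called higher at MII. The other 6 were called lower without ERCC scaling too, from -0.53 (Eef1b2) to -5.04 (Eef1d). With the libraries scaled to the same median, 5 of the 6 were called lower and Eef1b2 was not.

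**Figure D4:**
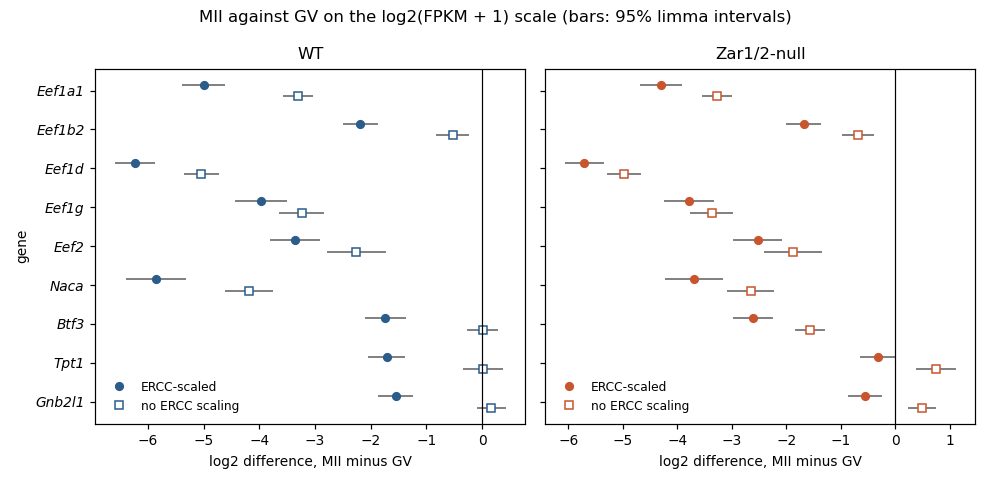
Log2 difference of FPKM + 1 between MII and GV oocytes (horizontal axis) of the 9 genes in WT and Zar1/2-null oocytes, with ERCC scaling (filled) and without it (open) and bars for 95% limma intervals. In WT, Btf3, Tpt1 and Gnb2l1 move from -1.74, -1.72 and -1.55 to 0.01, 0.02 and 0.17 when the scaling is removed, while Eef1d moves from -6.24 to -5.04.

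In Zar1/2-null oocytes, 8 of the 9 members fell between GV and MII, against 68.7% of all kept genes, and none rose, against 0.209%. Without ERCC scaling 40.5% of all kept genes fell and 19.5% rose. Eef1d fell from 185 and 187 to 3.09 and 2.14 FPKM (-5.70), Eef1a1 from 435 and 529 to 25.9 and 21.4 FPKM (-4.29), Eef1g from 20.3 and 33.2 to 0.935 and 0.988 FPKM (-3.78) and Naca from 779 and 715 to 77.1 and 41.7 FPKM (-3.69; limma, BH-adjusted p from 8.9e-10 to 1.3e-07). Btf3 fell by 2.61 on the log2 scale, more than in WT. Tpt1, which went from 193 and 172 to 137 and 157 FPKM, was the member not called (-0.31; limma, BH-adjusted p = 0.085). Without ERCC scaling, Tpt1 (0.75) and Gnb2l1 (0.49) were called higher at MII and the other 7 lower.

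The difference between the genotypes in this step was tested as an interaction. It was called for 6 of the 9, with 5 that fell less in Zar1/2-null oocytes and 1 that fell more. Of all kept genes, 33.9% were called with a smaller fall or a rise in Zar1/2-null oocytes and 0.643% with a larger one (15.1% and 6.46% without ERCC scaling), and the median was 0.48. Naca fell less by 2.17 (SE 0.34; limma, BH-adjusted p = 0.00073), Tpt1 by 1.41 (SE 0.21; adjusted p = 0.00051) and Gnb2l1 by 1.00 (SE 0.20; adjusted p = 0.0035). Eef2 (0.84) and Eef1a1 (0.71) had adjusted p values of 0.043 and 0.047, and both calls were lost in 8 of the 12 fits that left out a library and without ERCC scaling. Btf3 fell more, by -0.87 (SE 0.23; limma, BH-adjusted p = 0.015), a call that was lost without WT MII replicate 1 (adjusted p = 0.055). Without ERCC scaling the calls were Naca (1.54) and Tpt1 (0.72) on one side and Btf3 (-1.57) on the other, and with median scaling that of Tpt1 was lost too.

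The mRNA ratio of the exchange subunits differed at MII. In the 8 libraries before MII, Eef1b2 stood at 0.234 to 0.306 of Eef1d. At MII the ratio was 7.07 and 6.88 in WT and 4.41 and 6.10 in Zar1/2-null oocytes. Both mRNAs encode subunits with exchange activity towards eEF1A, and the delta mRNA had been the more abundant one before maturation. The Eef1a1 to Eef1b2 ratio went the other way, from 17.0 and 18.9 in WT growing oocytes to 12.6 and 12.3 at GV and 1.78 and 1.83 at MII. In Zar1/2-null oocytes it was 14.996 and 14.1, 9.34 and 12.1, and 1.90 and 1.64 at these stages, so that the MII libraries of the genotypes overlapped. Eef1d at MII was near 1 FPKM, and with 1 FPKM added to both genes the mean Eef1b2 to Eef1d ratio of WT MII oocytes went from 6.98 to 4.50. The ratios were not tested.

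As a group, the members took 0.470% and 0.475% of all listed FPKM in WT growing oocytes and 0.486% and 0.506% in WT GV oocytes. In WT MII oocytes they took 0.272% and 0.281%, and in Zar1/2-null MII oocytes 0.204% and 0.220%. The ribosomal protein mRNAs, which share the TOP class, differed from this: 79 genes took only 0.674% and 0.680% in WT MII oocytes. Their share was 5.63% and 5.34% in the Zar1/2-null MII libraries and 5.37% to 8.38% in the 8 libraries before. The members summed to 40.4% and 41.3% of the ribosomal protein sum in WT MII oocytes, 7.21% to 8.85% before MII, and 3.62% and 4.12% in Zar1/2-null MII oocytes.

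**Figure D5:**
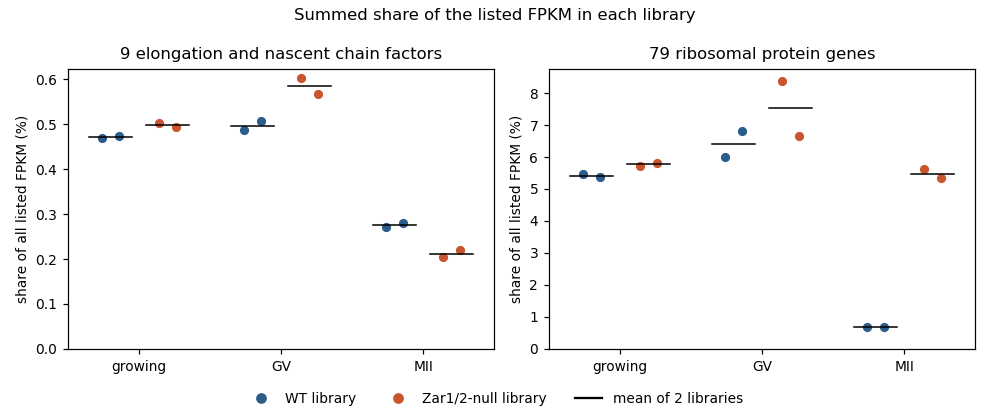
Summed share of all listed FPKM (%) of the 9 factors and of 79 ribosomal protein genes in each library, by stage and genotype, with each point a library and each line the mean of 2. At MII the 9 factors take 0.272% and 0.281% in WT and 0.204% and 0.220% in Zar1/2-null libraries, while the ribosomal protein genes take 0.674% and 0.680% in WT and 5.63% and 5.34% in Zar1/2-null libraries. Of the share of the 9 factors at MII, Btf3 alone holds 0.163% and 0.161% in WT and 0.0535% and 0.0556% in Zar1/2-null libraries.

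By gene, 73 of the 79 ribosomal protein genes were called higher in Zar1/2-null MII oocytes and 1 lower, with a median log2 difference of 2.34. Rpl39 (3.68 and 3.74 FPKM in WT, 1238 and 955 in Zar1/2-null oocytes) had the largest difference, and Rpl4 (25.4 and 33.9 against 17.6 and 14.3 FPKM) was the gene called lower. Naca, at 2.18, was the member whose difference came nearest to this median, and Btf3 the member that went against it. Other mRNAs of the TOP class did not follow as a block. Of the 8 tested, Pabpc1, the cytoplasmic poly(A)-binding protein, rose from 1.04 and 1.30 FPKM in WT to 9.48 and 9.94 FPKM in Zar1/2-null MII oocytes (2.31). Eif3f, a subunit of initiation factor 3, was called higher at 0.84, with 0.202 and 0.239 FPKM in WT against 1.33 and 1.05 FPKM. At such low levels the log2 difference of FPKM + 1 understates the change. Eif4b (-0.80) and Npm1 (-0.54; limma, BH-adjusted p = 0.0497) were called lower, and 4 were not called. Without ERCC scaling 2 were called higher and 4 lower.

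For the neighbouring steps of translation, the counts at MII stand beside the 21.5% higher and 10.3% lower of all kept genes. Neither the 7 other elongation genes nor the 9 mitochondrial translation factors held a called gene (limma), with medians of 0.22 and 0.12. Without ERCC scaling 1 elongation gene was called higher and 1 mitochondrial factor lower. Of the 6 termination and recycling factors, Etf1, the release factor that reads stop codons, fell from 1.97 and 2.14 FPKM in WT to 0.843 and 0.931 FPKM in Zar1/2-null oocytes (-0.69), and Hbs1l, a rescue factor for stalled ribosomes, was called lower too (-0.69). Without ERCC scaling 5 of the 6 were called lower, with a median of -0.68. Of the 23 genes of nascent chain processing and targeting, 4 were called higher and 2 lower, and without ERCC scaling 4 and 8. The largest differences upward were those of Hspa8, a chaperone that binds nascent chains (9.17 and 11.4 against 25.6 and 17.6 FPKM, 0.99), and Srp68, a signal recognition particle protein (0.98). Srp68 was near 1 FPKM, at 0.368 and 0.455 FPKM in WT against 1.88 and 1.67 FPKM, so its difference is understated. Downward they were those of Srp19, another protein of this particle (-0.66), and Naa50, an N-terminal acetyltransferase (-0.62; limma, BH-adjusted p from 0.003 to 0.015 for these 4).

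The genes whose pattern over the 12 libraries was most like the mean of the members were Mrps7, Gpn1, Hspa8, Glrx3 and Ccdc101, with a Pearson r of 0.999 each on centred log2(FPKM + 1). This is a description of 5827 genes that reached a mean of 10 FPKM in a group, whose median r was 0.91, and all genes of a library share its ERCC factor and most fell at MII. Of the first 100 genes in this order, 7 encode ribosomal proteins. Without ERCC scaling, where the median r was 0.46, the first 5 were Mrpl12, Med29, Ddit3, Rnaseh2a and Use1, and the members parted: Eef1d (0.99), Eef1g (0.98), Eef1a1 (0.98), Eef2 (0.97) and Naca (0.96) followed the mean, Eef1b2 (0.86) less closely, Btf3 was at 0.40, and Tpt1 (-0.43) and Gnb2l1 (-0.48) ran against it. Each member is itself part of this mean, most of all those that changed the most, so a high r of a member is partly built in.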

How the data were processed

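Smart-seq2 libraries of pooled oocytes were grouped by the genotype, stage and number in their labels. The authors trimmed reads to 50 bases, mapped them to mm9 with TopHat2 2.1.1, kept uniquely mapped reads and quantified UCSC gene models with Cufflinks 2.2.1. The deposited table lists the FPKM of 23230 genes in 12 libraries, each scaled by the ERCC share of the WT growing library with its replicate number over its own. Dividing by that factor, recovered from the values, returned 100% of the checked values to 6 significant digits. The table holds no counts, so depth and counting error are not known, and 33.5% of a library's values on average were 0.

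The filter kept the 11502 genes that reached 1 FPKM in any library. Values were analysed as log2(FPKM + 1) in limma 3.58.1 (R 4.3.3; lmFit, contrasts.fit, eBayes with trend), with a mean for each group, all 12 libraries, no replicate block and Benjamini-Hochberg adjustment. The fit was tested on simulated data. Ratios and shares were described without a test. Python 3.11.15 was used for the tables. Transcript positions and 3′ ends came from the GENCODE annotation of mm9, and 5′ starts from RefSeq.

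The members and all gene lists were chosen with earlier results of these data known. All 9 members are named, and of every other list at most 2 called genes in each direction at MII, those with the largest change. Genes most like the members were the first 5 by Pearson r. Results were recomputed without ERCC scaling, with libraries scaled to the same median, and with a pseudocount of 0.1, a mean of at least 5 FPKM, no filter, a replicate block, only the libraries of the groups compared, eBayes without trend, and leaving out each library. Immune and epithelial markers (summed 0.498 to 3.19 and 14.1 to 30.1 FPKM, with 1 gene of each list kept) were also examined.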

Additional observations from a re-analysis of the deposited data

Results flagged for a closer look

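For 6 of the 9 genes, the test of the difference itself showed that the genotype difference at MII was not that at GV (limma on log2(FPKM + 1), 2 libraries of 10 oocytes in each group, BH-adjusted p over all kept genes). The genotype difference at MII minus that at GV was 2.17 for Naca (adjusted p = 0.00073), 1.41 for Tpt1 (adjusted p = 0.00051), 1.00 for Gnb2l1 (0.997 before rounding; adjusted p = 0.0035), 0.84 for Eef2 (adjusted p = 0.043), 0.71 for Eef1a1 (adjusted p = 0.047) and -0.87 for Btf3 (adjusted p = 0.015). The median of all kept genes was 0.48, and 33.9% of these genes were called with a positive value. Eef2 and Eef1a1 lay above that median, at ranks 2882 and 3730 from the highest of 11502. Naca and Btf3, which encode the subunits of a single heterodimer, lay on opposite sides of 0. With 12 fits that each left out a library, the call was kept in 12 for Naca, Tpt1 and Gnb2l1, in 11 for Btf3 and in 4 for Eef1a1 and Eef2. Without ERCC scaling the values were 1.54 for Naca, 0.72 for Tpt1 and -1.57 for Btf3, all called, and 0.32 for Gnb2l1, 0.39 for Eef2 and 0.03 for Eef1a1, not called. With the libraries scaled to the same median, Naca (1.46) and Btf3 (-1.64) were called and Tpt1 was not (0.65; limma, BH-adjusted p = 0.052), nor were the other 3.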

How the results depend on the processing

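The genotype comparison at MII kept its counts within 1.5 times (3 to 6 members higher, 1 lower) in all 20 alternatives named under the processing, and Naca, Tpt1, Gnb2l1 and Btf3 kept direction and call in each. The 3 came without WT MII replicate 1 or Zar1/2-null MII replicate 1, and the 6 with a pseudocount of 0.1. Depth could not be weighed, since the table holds no counts, and 2 libraries in a group bound the precision throughout. The scaling moved the other comparisons most. The cause of the changes below was not tested.

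Without ERCC scaling, members called higher numbered 2 instead of 1 in growing oocytes and 2 instead of 0 at GV. With the libraries scaled to the same median they numbered 3 and 4, and without a filter the growing count was 0. From growing to GV, 1 member was called higher and 0 lower in WT without ERCC scaling (0 lower with median scaling), and in Zar1/2-null oocytes 3 higher and 0 lower under both. From GV to MII, median scaling gave 3 higher and 5 lower in WT, and both scalings gave 2 higher in Zar1/2-null oocytes. For the interaction of MII with GV, 2 members were called higher without ERCC scaling, 1 with median scaling and 3 without a filter. Leaving out 1 library at a time gave counts of 0 to 1 for members higher in growing oocytes (0 without any of the 4 growing libraries), 0 to 1 for members lower at GV (1, Eef2, when a Zar1/2-null growing library was left out), 0 to 2 for members lower from growing to GV in WT, 3 to 5 for members higher and 0 to 1 for members lower in the interaction of MII with GV.

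Member differences turned direction chiefly under the other scalings, and values are given without ERCC scaling and then median-scaled. In growing oocytes the genotype differences were Eef1a1 0.075 and 0.079, Eef1d 0.25 and 0.25, Tpt1 0.27 and 0.27, Btf3 0.12 and 0.12. At GV they were Eef1a1 0.13 and 0.21, Eef1b2 0.35 and 0.43, Eef2 0.045 (median-scaled alone), Tpt1 0.11 and 0.20, Btf3 0.39 and 0.47, Gnb2l1 0.28 and 0.36. From growing to GV, WT values were Eef1b2 0.25 and 0.23, Eef1d 0.30 and 0.28, Eef2 0.065 and 0.047, Tpt1 0.19 and 0.18, Naca 0.38 and 0.36, Gnb2l1 0.30 and 0.28. Those of Zar1/2-null oocytes were Eef1b2 0.22 and 0.29, Eef1d 0.53 and 0.60, Tpt1 0.030 and 0.098, Gnb2l1 0.20 and 0.27. From GV to MII, WT values were Tpt1 0.023 and 0.38, Btf3 0.013 and 0.37, Gnb2l1 0.17 and 0.52. The Zar1/2-null values were Tpt1 0.75 and 1.03, Gnb2l1 0.49 and 0.77. In the interaction of GV with growing they were Eef1a1 0.051 and 0.14, Eef1b2 0.055 (median-scaled alone). For MII with GV they were Eef1a1 -0.044 (median-scaled alone), Eef1b2 -0.15 and -0.22, Eef1d -0.044 (median-scaled alone), Eef1g -0.13 and -0.26. Leaving out 1 library at a time turned the direction of uncalled values near 0, which then spanned these ranges. They were, for the genotype difference in growing oocytes, -0.11 to 0.036 for Eef1d, -0.23 to 0.37 for Eef2 and -0.13 to 0.10 for Tpt1. At GV these were -0.068 to 0.13 for Eef1d, -0.16 to 0.53 for Eef1g, -0.091 to 0.11 for Naca and -0.18 to 0.046 for Btf3. In WT from growing to GV these were -0.19 to 0.0091 for Eef1d, -0.11 to 0.090 for Naca, -0.026 to 0.20 for Btf3 and -0.21 to 0.033 for Gnb2l1. In Zar1/2-null oocytes the range was -0.095 to 0.050 for Eef1d. In the interaction of GV with growing the ranges were -0.25 to 0.025 for Eef1a1, -0.031 to 0.17 for Eef1d and -0.049 to 0.25 for Btf3. In that of MII with GV it was -0.15 to 0.53 for Eef1g.

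With 1 FPKM added to both genes, the mean ratio was 0.0629 for Naca to Btf3 in WT MII oocytes, 0.270 for Eef1b2 to Eef1d in WT GV oocytes, 4.50 and 4.03 in WT and Zar1/2-null MII oocytes, and 1.73 for Eef1a1 to Eef1b2 in WT MII oocytes. Without Mir and Snor genes in the sum, the members' mean share was 0.482% in WT growing, 0.508% in Zar1/2-null growing and 0.513% in WT GV oocytes.

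The deviations of same-numbered libraries correlated weakly (15 pairs of groups, r from -0.117 to 0.163, 4 over 0.1), and the numbers were not read as a pairing of animals. The ERCC factors do link same-numbered libraries, since each was set against the WT growing library of its number. A fit with the replicate block takes up that offset. It called 5 instead of 4 members lower from growing to GV in Zar1/2-null oocytes, the added one being Gnb2l1 (-0.35; limma, BH-adjusted p = 0.042), and changed no other member's call. Differences with 1 library left out hold part of the offset.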
